A study of Homo sapiens with 6 samples.

Results

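The genes described here are 34 genes of the TGF-beta response and of the mesenchymal cell state, chosen by symbol: TGF-beta induced genes, extracellular matrix genes, cytoskeletal and adhesion genes, and the transcription factors that drive the mesenchymal state. The platform annotation gave a named row to 21 of the 34, out of 14884 named genes in the table. Of these 21, 18 had a mean log2 signal over all arrays at or above 5.45, the median of the named genes, and were tested among 7442 genes. LOX, ZEB2 and TWIST1 had named rows below that level and were not tested. TNC, with a mean of 5.50, lay just inside it, and ZEB2, with 4.46, was the nearest below it. TGFBI, PMEPA1, BHLHE40, ID1, ID2, ID3, COL1A1, COL4A1, COL5A1, SPARC, POSTN, CDH2 and CDH11 had no named row and were not analysed here.

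The values come from A549, an established line of human lung adenocarcinoma cells, transfected with MYEOV siRNA 1, with MYEOV siRNA 2 or with a control siRNA, with 2 arrays in each of the 3 groups. RNA was taken 48 hours after transfection with a lipid reagent in all groups, so both MYEOV siRNA groups reflect a transient knockdown in 1 cell line. The siRNA sequences were not analysed here. MYEOV, the targeted gene, had log2 signals of 5.34 and 5.19 with siRNA 1 and 5.23 and 4.70 with siRNA 2, against 6.20 and 6.50 in control cells. MYEOV fell by 1.09 with siRNA 1 and by 1.39 with siRNA 2 (limma, Benjamini-Hochberg adjusted p = 0.0215 and 0.00516). The siRNA 1 call was lost without either siRNA 1 array or either control array (adjusted p up to 0.146). Signals are log2 values, so a difference of 1 is a 2-fold change, and differences carry their standard error (SE) or 95% confidence interval. Because these are whole cultures, fewer cells with a transcript and less of it per cell cannot be told apart.

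TGF-beta ligands are secreted in a latent form that latent TGF-beta binding proteins hold in the matrix, and active ligand signals through paired receptor kinases to SMAD2 and SMAD3, which enter the nucleus with SMAD4. The related BMP branch uses SMAD1 and SMAD5. In epithelial cells the pathway can induce SNAI and ZEB repressors, lower cell-cell junction genes and raise vimentin, fibronectin and actin-binding proteins, a change known as epithelial-mesenchymal transition. A549 cells are often used to study it.

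Keratin and EPCAM signals of epithelial cells were visible in these arrays, but those of several other epithelial genes were low. All 5 epithelial markers with a named row (EPCAM, KRT7, KRT8, KRT18 and KRT19) lay above the tested level, and the log2 of their summed signal was 12.18 to 12.27 with siRNA 1, 12.00 to 12.11 with siRNA 2 and 12.25 to 12.26 in control cells. The sum adds unlogged signals and is mostly KRT18, with a mean of 11.98, where the next highest, KRT7, had 8.12. With siRNA 2 KRT18 differed from control cells by -0.21 in this row and by -0.05 in another row annotated as KRT18. In control cells the other row had only 7.84 and 7.79, against 12.07 and 12.06 in this row. Which row reflects KRT18 mRNA was not tested. Of the 5 markers 4 lay below 0 with siRNA 2 and 1, EPCAM, above it (0.23). The part of the lower sum with siRNA 2 in the results was not tested. CDH1 had no named row. Of 18 named epithelial junction and epithelial state genes, described below, 8 lay below the tested level: ESRP1, ESRP2, GRHL2, OVOL1, OVOL2, ST14, CLDN4 and CLDN7. The 3 fibroblast markers and 3 endothelial markers with a named row also lay below that level. CD68, the single leukocyte marker with a named row, lay above it. None of 4 markers of the A549 line had a named row.

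Among the 18 tested members, 3 were called in at least 1 comparison: BAMBI, a membrane pseudoreceptor that dampens TGF-beta signalling; THBS1, a matrix glycoprotein that can activate latent TGF-beta; and TPM1, which stabilises actin filaments. Their promoters are shown as the sequences upstream of the members that the tests single out. Each is the 250 bases before the annotated start, from the RefSeq promoter table of GRCh38.p14, all on the plus strand, at chr10:28677271-28677520 for BAMBI, chr15:39580829-39581078 for THBS1 and chr15:63048239-63048488 for TPM1. Capitals mark CAGAC, the short motif that SMAD proteins can bind, or its reverse complement GTCTG.
BAMBI: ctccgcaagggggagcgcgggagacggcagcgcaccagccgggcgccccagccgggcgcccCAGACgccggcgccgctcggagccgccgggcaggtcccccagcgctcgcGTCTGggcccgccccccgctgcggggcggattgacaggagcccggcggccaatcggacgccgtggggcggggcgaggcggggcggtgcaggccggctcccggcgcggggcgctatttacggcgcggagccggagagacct
THBS1: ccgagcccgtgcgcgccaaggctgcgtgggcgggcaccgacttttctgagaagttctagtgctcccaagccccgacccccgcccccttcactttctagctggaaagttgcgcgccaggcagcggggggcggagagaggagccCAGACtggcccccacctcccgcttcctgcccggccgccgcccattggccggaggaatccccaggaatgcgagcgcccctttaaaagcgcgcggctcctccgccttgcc
TPM1: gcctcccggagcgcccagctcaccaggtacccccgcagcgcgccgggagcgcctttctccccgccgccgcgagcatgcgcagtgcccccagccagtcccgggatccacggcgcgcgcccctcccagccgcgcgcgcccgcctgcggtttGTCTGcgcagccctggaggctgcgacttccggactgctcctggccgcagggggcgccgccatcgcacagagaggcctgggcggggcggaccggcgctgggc
BAMBI held 2 matches, from -189 to -185 and from -140 to -136 relative to the start. THBS1 held 1, from -108 to -104, and TPM1 held 1, from -101 to -97. The window searched also took in the 50 bases after the start, on both strands, and held no further match in these 3 genes. CAGAC occurred in 8 of the 14 tested members with a promoter entry and in 45.0% of all 27305 promoters. The E-box CACCTG, bound by ZEB and SNAI factors, occurred in 4 of the 14 and in 20.6% of all promoters, and the AP-1 motif TGANTCA in 0 of the 14 and in 7.76%. Neither CACCTG nor TGANTCA was found in the windows of BAMBI, THBS1 or TPM1, and no motif overlapped another there. A match describes the letters and was not tested as a binding site.

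Each MYEOV siRNA was first set against the control siRNA, which asks whether these genes moved with each siRNA. The part of lowered MYEOV in such changes was not tested apart from other effects of each siRNA. With siRNA 1, limma with Benjamini-Hochberg adjustment over all 7442 genes called 1 of the 18 members, BAMBI, which rose (5.56% of the members, against 4.66% of all genes tested, 2.28% higher and 2.38% lower). Before adjustment 3 members had a p under 0.05, as did 19.2% of all genes. With siRNA 2 it called 0 of 18, against 6.83% of all genes (2.59% higher and 4.23% lower), and 4 members (BAMBI, THBS1, TPM1 and ZEB1) had an unadjusted p under 0.05, where 22.2% of all genes did. The shares called among the members were thus close to or below those of the whole table. Over the 18 members the median difference was 0.05 with siRNA 1 and -0.07 with siRNA 2, beside -0.0027 and 0.00054 over all genes tested. Both comparisons use the same 2 control arrays.

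The sizes were small. The 95% intervals of all 18 members lay between -0.46 and 0.70 with siRNA 1 and between -0.60 and 0.45 with siRNA 2, so a 2-fold change of any tested member lay outside its interval. The intervals reached 0.16 to 0.37 to either side of the estimate. The signals of the siRNA arrays did not overlap those of the control arrays for 7 of 18 members with siRNA 1, 6 higher and 1 lower, where 48.8% of all genes did not overlap, 24.4% higher and 24.4% lower. With siRNA 2 it was also 7 of 18, 2 higher and 5 lower, where 50.6% of all genes did not overlap, 25% higher and 25.6% lower.

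**Figure D1:**
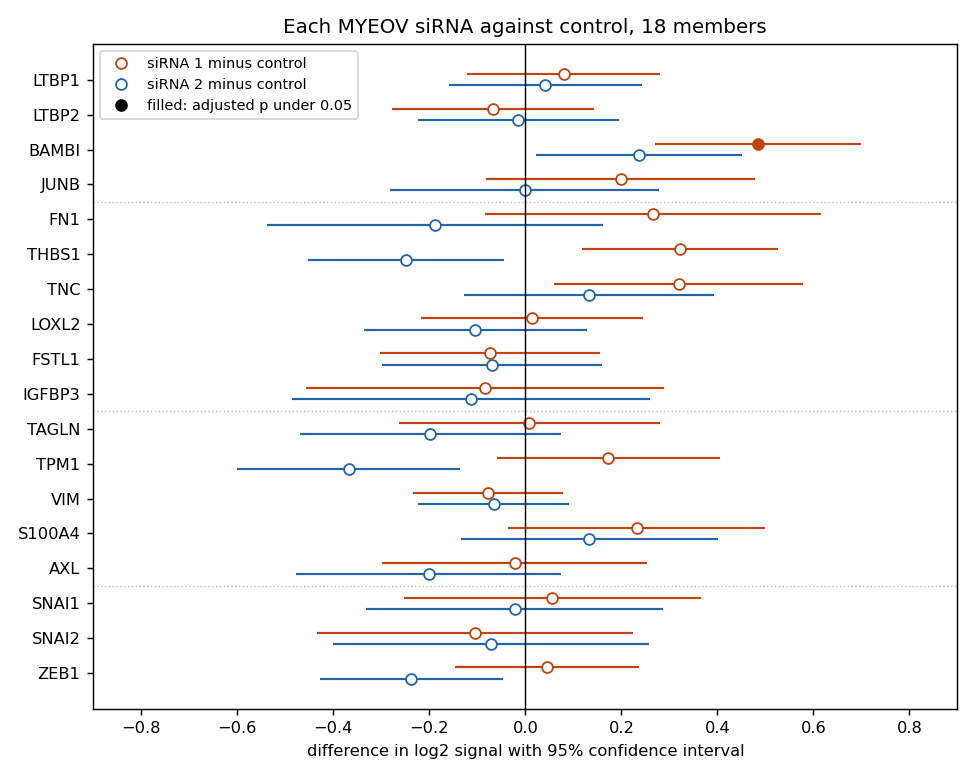
Difference in log2 signal from control cells (x axis) of the 18 tested members (y axis, in the order of their roles, separated by dotted lines) for MYEOV siRNA 1 in red and MYEOV siRNA 2 in blue; points are limma estimates from 2 arrays per group and bars are 95% confidence intervals. BAMBI with siRNA 1, at 0.48, is the single filled point, which marks an adjusted p under 0.05.

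The first role group holds the proteins that store or restrain TGF-beta and its early targets. BAMBI had log2 signals of 7.60 and 7.42 with siRNA 1 and 7.27 and 7.26 with siRNA 2, against 6.95 and 7.11 in control cells. All 4 arrays of the MYEOV siRNAs were above both control arrays, and both siRNA 1 arrays were above both siRNA 2 arrays. With siRNA 1 BAMBI rose by 0.48 ± 0.09 (SE), or 1.40-fold (limma, Benjamini-Hochberg adjusted p = 0.0342). With siRNA 2 the difference was 0.24 ± 0.09 (adjusted p = 0.184), and the siRNAs differed by 0.25, with an interval of 0.03 to 0.46 (adjusted p = 0.154). For the mean of both siRNAs BAMBI was again the single member called of 18, against 5.42% of all genes (2.55% higher and 2.86% lower), at 0.36 ± 0.08 (adjusted p = 0.0472, and 0.0548 with the replicate number as a block, where 7.14% of all genes were called). At an unadjusted p under 0.05 there were 2 members for this mean, where 20.4% of all genes lay. The call with siRNA 1 was lost when any of the 6 arrays was left out, with adjusted p-values from 0.0584 to 0.165, and likewise that for the mean, from 0.0661 to 0.230, while the difference stayed at 0.39 to 0.58 and 0.28 to 0.44.

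JUNB, an AP-1 subunit induced early by TGF-beta, had 7.84 and 7.72 with siRNA 1 and 7.65 and 7.51 with siRNA 2, against 7.74 and 7.42 in control cells, and overlapped control cells with each siRNA. Its differences were 0.20 ± 0.12 and -0.0013 ± 0.12 (adjusted p = 0.432 and 0.997 with siRNA 1 and siRNA 2). LTBP1, which tethers latent TGF-beta to the matrix, ranged over all arrays from 7.15 to 7.35, and LTBP2, a matrix protein of the same family, from 6.07 to 6.30. Their differences from control cells lay between -0.07 and 0.08, and both siRNA 2 arrays of LTBP1 lay just above the control arrays. A further row annotated as LTBP2 lay below the tested level and differed by -0.26 with siRNA 1 and -0.62 with siRNA 2, untested.

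Of the 6 tested matrix genes, THBS1 was called between the siRNAs and none against control cells. THBS1 had 9.50 and 9.43 with siRNA 1 and 8.99 and 8.80 with siRNA 2, against 9.10 and 9.19 in control cells. The siRNA 1 arrays lay above both control arrays and the siRNA 2 arrays below them. Against control cells neither difference passed, at 0.32 ± 0.09 with siRNA 1 and -0.25 ± 0.09 with siRNA 2 (limma, Benjamini-Hochberg adjusted p = 0.0955 and 0.151). With siRNA 1 THBS1 was called when genes below the 75th percentile of the mean were left out (adjusted p = 0.0355) and with a trend and robust variance prior (0.0358). Those settings called 11.4% and 6.73% of all genes, against 4.66% in the main fit. With no filter on dim genes its adjusted p was 0.324.

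FN1, fibronectin, had 9.06 and 9.12 with siRNA 1 and 8.45 and 8.83 with siRNA 2, against 8.66 and 8.99 in control cells, so the siRNA 1 arrays lay above the control arrays and the siRNA 2 arrays overlapped them. It differed by 0.27 ± 0.15 and -0.19 ± 0.15 (adjusted p = 0.398 and 0.527). TNC, the matrix glycoprotein tenascin-C, had 5.70 and 5.64 with siRNA 1 and 5.62 and 5.34 with siRNA 2, against 5.44 and 5.26 in control cells. Its siRNA 1 arrays lay above both control arrays, and its differences were 0.32 ± 0.11 and 0.13 ± 0.11 (adjusted p = 0.169 and 0.550). LOXL2, an enzyme that cross-links collagen, had 9.18 and 9.36 with siRNA 1 and 9.05 and 9.25 with siRNA 2, against 9.21 and 9.30 in control cells, with all groups overlapping. FSTL1, a secreted glycoprotein, and IGFBP3, which binds insulin-like growth factors, differed from control cells by between -0.11 and -0.07 with either siRNA. LOX, another collagen cross-linking enzyme, ranged from 3.97 to 4.11 over all arrays and was not tested.

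TPM1 showed the same split as THBS1 among the cytoskeletal genes. Its log2 signal was 7.36 and 7.45 with siRNA 1 and 6.75 and 6.97 with siRNA 2, against 7.15 and 7.31 in control cells, with no overlap between any 2 groups. It differed from control cells by 0.17 ± 0.10 with siRNA 1 and by -0.37 ± 0.10 with siRNA 2 (limma, Benjamini-Hochberg adjusted p = 0.408 and 0.0757). With the replicate number as a block, the siRNA 2 difference passed (adjusted p = 0.0245, with 9.43% of all genes called in that fit). A second row annotated as TPM1, with a mean below the tested level, differed by -0.28 and -0.53, so the rows disagreed in sign for siRNA 1.

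TAGLN, the actin-binding protein transgelin, had 5.70 and 5.73 with siRNA 1 and 5.43 and 5.58 with siRNA 2, against 5.54 and 5.86 in control cells, and both siRNA groups overlapped the control range. S100A4, a calcium-binding protein of motile cells, had 7.15 and 7.29 with siRNA 1 and 7.27 and 6.97 with siRNA 2, against 6.93 and 7.04 in control cells. AXL, a receptor tyrosine kinase of mesenchymal-like tumour cells, had 10.87 and 10.61 with siRNA 1 and 10.63 and 10.49 with siRNA 2, against 10.87 and 10.65 in control cells. Both siRNA 1 arrays of S100A4 lay above the control arrays and both siRNA 2 arrays of AXL below them. None of these 3 passed the test with either siRNA, with differences from -0.20 to 0.23 and adjusted p-values from 0.330 to 0.978 (limma).

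VIM, the intermediate filament protein vimentin, gave different answers in its 3 rows. In the row with the highest mean, which stands for the gene in the counts above, the log2 signal was 9.61 and 9.57 with siRNA 1 and 9.61 and 9.59 with siRNA 2, against 9.69 and 9.64 in control cells. Both siRNA groups lay just below the control arrays, with differences of -0.08 ± 0.07 and -0.07 ± 0.07 (limma, Benjamini-Hochberg adjusted p = 0.591 and 0.636). In a second row it was 7.87 and 7.99 with siRNA 1 and 8.03 and 7.98 with siRNA 2, against 8.52 and 8.40 in control cells. In the third row it was 8.33 and 8.42 with siRNA 1 and 8.42 and 8.49 with siRNA 2, against 8.97 and 8.91 in control cells. In both of these rows all 4 arrays of the MYEOV siRNAs lay clearly below both control arrays.

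With each named row tested on its own, over 7836 rows, of which limma called 4.59% with siRNA 1 and 6.83% with siRNA 2, the VIM signal in the second row fell by 0.53 with siRNA 1 and by 0.45 with siRNA 2 (adjusted p = 0.0164 and 0.0197). The third row's signal fell by 0.56 and by 0.48 (adjusted p = 0.0101 and 0.0114), linear changes of -32.3% and -28.4%. For the mean of both siRNAs the rows fell by 0.49 and by 0.52 (adjusted p = 0.0115 and 0.00767, with 5.32% of all rows called), and both calls were lost without either control array (adjusted p up to 0.0818 and 0.0646). The siRNAs did not differ detectably in either row (differences of -0.08 in each, adjusted p = 0.626 and 0.578, with 8.6% of all rows called). The annotation gives all 3 rows the same gene and transcript, and the positions of their probes were not used here, so which row reflects vimentin mRNA was not tested. These rows were picked out after their values were seen. Each of their 4 siRNA calls was lost without control siRNA replicate 1 and without either array of the siRNA compared, and 3 of the 4 without control siRNA replicate 2, with adjusted p-values up to 0.108. The differences then stayed between -0.61 and -0.39.

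**Figure D2:**
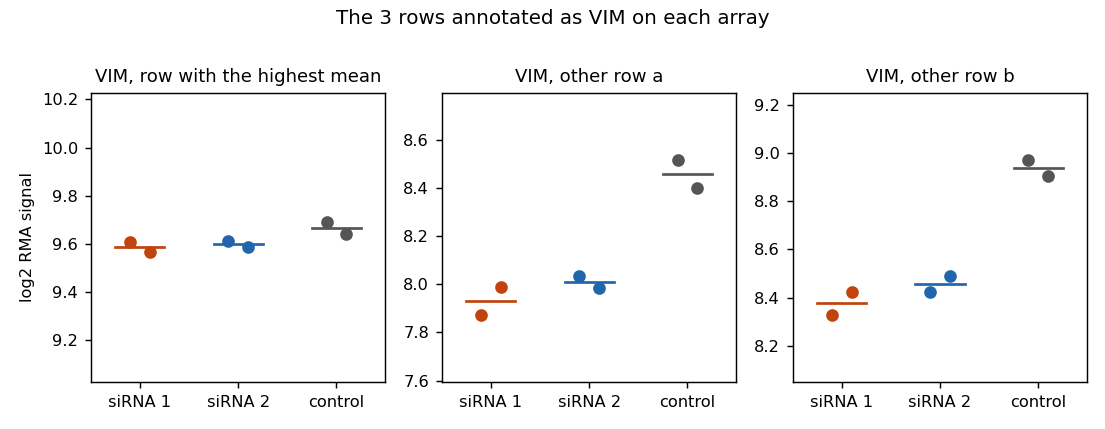
Log2 RMA signal (y axis, each panel spanning the same width of 1.2) of the 3 rows annotated as VIM for MYEOV siRNA 1, MYEOV siRNA 2 and control siRNA; points are single arrays and lines are means of 2 arrays. Both siRNA groups lie below the control arrays in all 3 panels, by 0.08 and 0.07 in the left panel and by 0.45 to 0.56 in the others.

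None of the 3 tested transcription factors of the mesenchymal state passed the test against control cells. ZEB1, a repressor of epithelial genes, had 6.52 and 6.49 with siRNA 1 and 6.25 and 6.20 with siRNA 2, against 6.55 and 6.37 in control cells, so the siRNA 2 arrays alone lay below the control arrays. Its differences were 0.05 ± 0.08 and -0.24 ± 0.08 (limma, Benjamini-Hochberg adjusted p = 0.817 and 0.145). SNAI1, a repressor of E-cadherin, ranged from 5.76 to 6.16 over all arrays, and its intervals were -0.25 to 0.37 with siRNA 1 and -0.33 to 0.29 with siRNA 2. SNAI2, its close relative, ranged from 6.15 to 6.55, with intervals of -0.43 to 0.22 and -0.40 to 0.26. ZEB2 ranged from 4.30 to 4.60 and TWIST1 from 2.89 to 3.36, both dim and untested. A signal this low in RMA values understates differences.

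The second question was whether the siRNAs differed from each other. The estimate of this difference does not involve the control arrays. Its SE, interval and p-value do, through the spread estimated from all 6 arrays. Limma called 2 of the 18 members, THBS1 and TPM1, both higher with siRNA 1 (11.1% of the members, against 9.15% of all genes tested, 5.37% higher and 3.78% lower). In this fit, without the replicate block, the share was again close to that of the whole table. With the block FN1 and ZEB1 were called as well, where 12.4% of all genes were called. THBS1 was higher by 0.57 ± 0.09, or 1.48-fold, with an interval of 0.37 to 0.77 (Benjamini-Hochberg adjusted p = 0.00909). TPM1 was higher by 0.54 ± 0.10, or 1.46-fold, with an interval of 0.31 to 0.77 (adjusted p = 0.0185). The THBS1 call was lost without either siRNA 1 array or siRNA 2 replicate 2 (adjusted p up to 0.0666), and the TPM1 call without either siRNA 1 array, without siRNA 2 replicate 1 (up to 0.111), and with averaged rows per gene.

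At an unadjusted p under 0.05 there were 5 members, where 23.6% of all genes lay. The difference was above 0 for 14 of 18 members, with a median of 0.15, beside -0.00055 over all genes tested. The lists set beside the members leaned the same way, with 9 of 10 tested epithelial genes above 0 (median 0.18). The 5 epithelial markers, 4 of them above 0 (median 0.20), are among those 10 genes. Above 0 were also 10 of 12 ligands, receptors and SMAD regulators (0.08) and 9 of 10 other TGF-beta targets (0.07). SKIL is in both of these lists. For 8 of 18 members both siRNA 1 arrays were above both siRNA 2 arrays, and for 0 they were below, where 27.1% and 27.5% of all genes were (54.5% in either direction). The 8 were BAMBI, JUNB, FN1, THBS1, TNC, TAGLN, TPM1 and ZEB1. FN1 differed by 0.45 ± 0.15 and ZEB1 by 0.28 ± 0.08 (limma, Benjamini-Hochberg adjusted p = 0.114 and 0.0798), and both passed with the replicate number as a block (adjusted p = 0.0303 and 0.0493), where 4 of the 18 members were called, against 12.4% of all genes.

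**Figure D3:**
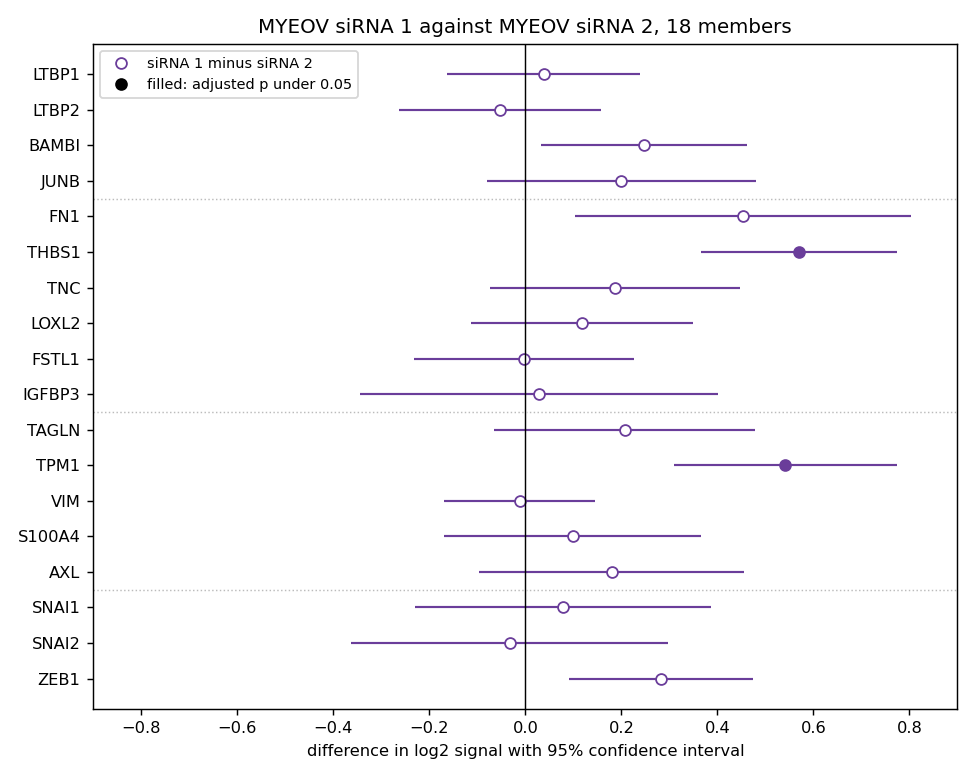
Difference in log2 signal between MYEOV siRNA 1 and MYEOV siRNA 2 (x axis, positive where siRNA 1 is higher) of the 18 tested members (y axis, grouped by role); points are limma estimates from 2 arrays per group and bars are 95% confidence intervals. THBS1 at 0.57 and TPM1 at 0.54 are filled, for an adjusted p under 0.05, and 14 of the 18 points lie above 0.

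**Figure D4:**
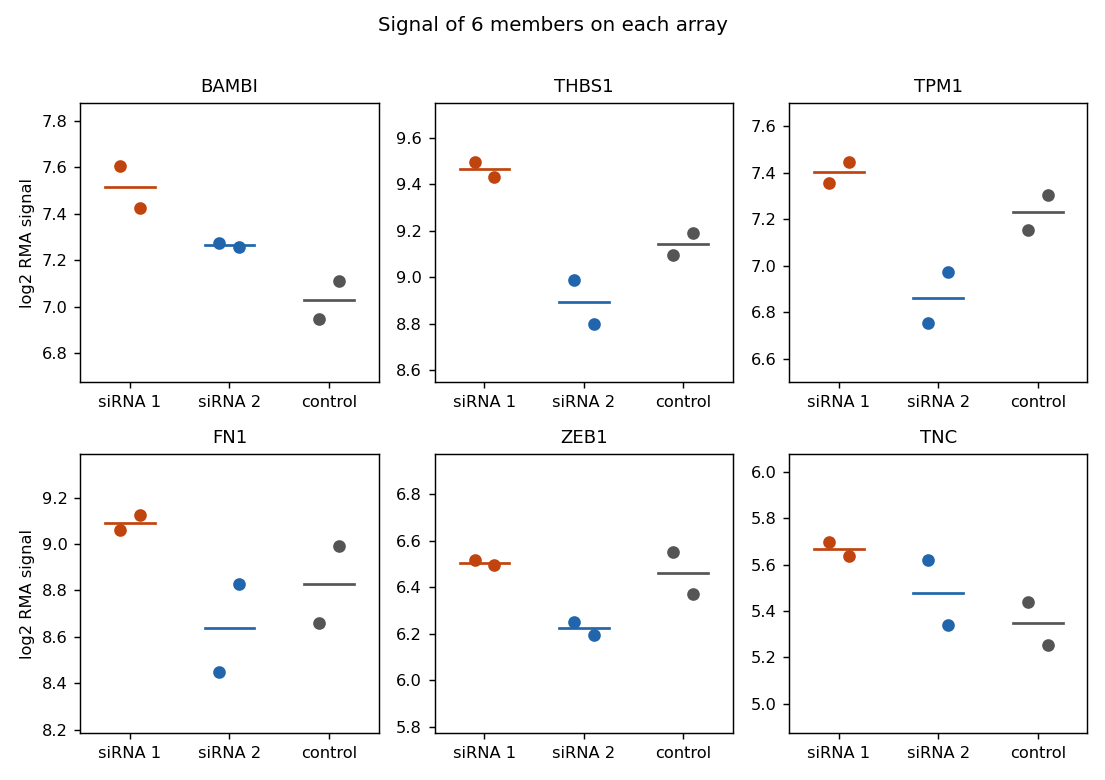
Log2 RMA signal (y axis, each panel spanning the same width of 1.2) of BAMBI, THBS1, TPM1, FN1, ZEB1 and TNC on each array of MYEOV siRNA 1, MYEOV siRNA 2 and control siRNA; points are single arrays and lines are means of 2 arrays. In all 6 panels both siRNA 1 arrays lie above both siRNA 2 arrays, and in the THBS1 and TPM1 panels the control arrays lie between them.

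The genes that carry the signal inside the cell were set beside the members, from lists chosen with earlier results of these data known. Of 31 TGF-beta family ligands, receptors and SMAD regulators, 16 had a named row and 12 were tested. With siRNA 1, 1 was called higher and 0 lower, where 4.66% of all genes were called. With siRNA 2 it was 2 higher and 1 lower, where 6.83% of all genes were called. For the mean of both siRNAs it was 2 higher and 0 lower, where 5.42% of all genes were called. Between the siRNAs limma called 0, where 9.15% of all genes were called, and 3 had an unadjusted p under 0.05, as did 23.6% of all genes. SMAD5, which carries BMP signals, had 7.45 and 7.49 with siRNA 1 and 7.43 and 7.34 with siRNA 2, against 7.07 and 6.84 in control cells. It rose by 0.51 ± 0.09 with siRNA 1 and by 0.43 ± 0.09 with siRNA 2 (limma, Benjamini-Hochberg adjusted p = 0.0300 and 0.0389).

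SMAD2, which carries TGF-beta signals, had 10.17 and 10.16 with siRNA 1 and 10.18 and 10.24 with siRNA 2, against 9.80 and 9.94 in control cells, with no overlap of either siRNA with control. It rose by 0.34 ± 0.08 with siRNA 2 (adjusted p = 0.0451), and with siRNA 1 the difference was 0.29 ± 0.08 (adjusted p = 0.0859). For the mean of both siRNAs SMAD5 rose by 0.47 and SMAD2 by 0.32 (limma, Benjamini-Hochberg adjusted p = 0.0202 and 0.0402). With no filter on dim genes neither mean passed (0.145 and 0.210). SKIL, a repressor of SMAD activity that TGF-beta induces, had 8.60 and 8.66 with siRNA 1 and 8.40 and 8.43 with siRNA 2, against 8.73 and 8.73 in control cells. It fell by 0.32 on the log2 scale with siRNA 2 (adjusted p = 0.0362), and its siRNA 1 difference was -0.10 (adjusted p = 0.473). Of the SMAD5, SMAD2 and SKIL calls with a single siRNA, those of SMAD2 and SKIL were lost when any of the 6 arrays was left out, with adjusted p-values up to 0.199. The SMAD5 call with siRNA 1 was lost without either siRNA 1 array or control siRNA replicate 2 (up to 0.170), and with siRNA 2 it was kept, of the 6 omissions, only without control siRNA replicate 1. SMAD3, SMAD4, SMAD6 and SMAD7 did not pass the test in any of the 4 comparisons. SMAD6 did between the siRNAs with the 75th percentile filter, where 18.4% of all genes were called. With that filter SKIL also passed between the siRNAs and for the mean (limma, Benjamini-Hochberg adjusted p = 0.0369 and 0.0315). SMAD2 passed with siRNA 1 (0.0297). The filter called 13% of all genes for the mean and 11.4% with siRNA 1. With no filter these 3 did not pass (0.328, 0.333 and 0.314). SMAD3 had 6.12 and 5.67 with siRNA 2, against 6.26 and 6.25 in control cells. Its siRNA 2 difference of -0.36 (adjusted p = 0.181) thus rests mostly on 1 array.

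Of 23 other TGF-beta targets, 11 had a named row and 10 were tested. With siRNA 1 limma called 0, where 4.66% of all genes were called, and 2 had an unadjusted p under 0.05, as did 19.2% of all genes. With siRNA 2 it called 2, where 6.83% of all genes were called (4.23% lower), both lower: SKIL, which is in both lists, and CCN2, a matricellular protein induced by TGF-beta. CCN2 had 7.57 and 7.88 with siRNA 1 and 7.26 and 7.23 with siRNA 2, against 7.79 and 8.04 in control cells, and fell by 0.67 on the log2 scale with siRNA 2 (limma, Benjamini-Hochberg adjusted p = 0.0233). It was not called without either siRNA 2 array or control siRNA replicate 2 (adjusted p up to 0.104). With siRNA 1 it differed from control cells by -0.19 ± 0.12 (adjusted p = 0.465), and the siRNAs differed by 0.48 ± 0.12 (adjusted p = 0.0587, and 0.0300 with the replicate block). For the mean of both siRNAs the adjusted p was 0.0710, and 0.0376 with the block. Both also passed with the 75th percentile filter (0.0199 between the siRNAs and 0.0226 for the mean), where 18.4% and 13% of all genes were called. They passed with the trend and robust prior too (0.0264 and 0.0308), where 11.7% and 7.81% were called. The main fit called 9.15% and 5.42%. With no filter neither passed (0.224 and 0.262), nor did the siRNA 2 difference of CCN2 (0.142). Its direction between the siRNAs was the one seen for THBS1 and TPM1.

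Of 22 epithelial junction and epithelial state genes, 18 had a named row and 10 were tested. Against control cells limma called 0 with siRNA 1 and 0 with siRNA 2, where 4.66% and 6.83% of all genes were called. An unadjusted p under 0.05 was seen for 2 of the 10 with siRNA 1 and 6 of the 10 with siRNA 2, where 19.2% and 22.2% of all genes had one. The 2 with siRNA 1 were both higher. With siRNA 2 the directions were mixed: KRT7, KRT8, KRT18 and CLDN1 were lower, and EPCAM and JUP were higher. KRT18 stands here by the brighter of its rows. For the mean of both siRNAs limma called 1, higher: JUP, the junction protein plakoglobin. JUP had 9.21 and 9.17 with siRNA 1 and 9.10 and 9.17 with siRNA 2, against 8.91 and 8.73 in control cells. JUP rose by 0.34 ± 0.07 for the mean (limma, Benjamini-Hochberg adjusted p = 0.0420), a call lost when any of the 6 arrays was left out (up to 0.181). With the 75th percentile filter JUP also passed with siRNA 1 and siRNA 2 (adjusted p = 0.0168 and 0.0245), where 11.4% and 15.4% of all genes were called. With no filter neither passed (0.251 and 0.278). CLDN1, a tight junction protein, was called lower with siRNA 2 with the replicate block alone (adjusted p = 0.0395), at 9.95 and 9.61 with siRNA 2, against 10.20 and 10.10 in control cells. Between the siRNAs its adjusted p was 0.0578, and 0.0143 with the block, where 12.4% of all genes were called. CLDN1 also passed there with the 75th percentile filter, the trend and robust prior and array weights. These called 18.4%, 11.7% and 10.9% of all genes, against 9.15% in the main fit.

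**Figure D5:**
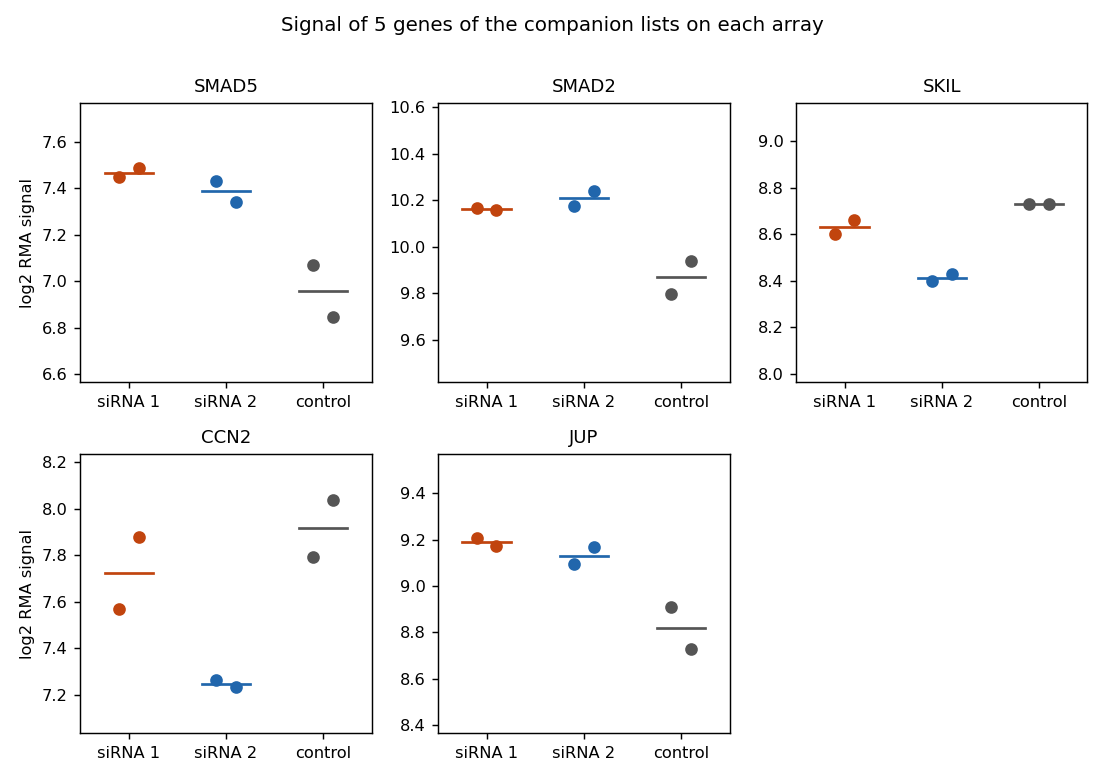
Log2 RMA signal (y axis, each panel spanning the same width of 1.2) of SMAD5, SMAD2, SKIL, CCN2 and JUP on each array of MYEOV siRNA 1, MYEOV siRNA 2 and control siRNA; points are single arrays and lines are means of 2 arrays. SMAD5, SMAD2 and JUP lie above the control arrays with both siRNAs, and CCN2 and SKIL lie lowest with siRNA 2.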

How the data were processed

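The deposited values are log2 signals of Affymetrix whole-transcript arrays summarised by RMA according to the deposited labels (per the submitters' processing notes; version not given). RMA adjusts background, equalises distributions between arrays and compresses differences of dim transcripts. Array medians lay between 4.08 and 4.10. Of 53617 rows, the platform annotation names 1 gene for 16098, several for 0 and none for 37519. The row with the highest mean stood for each of 14884 genes, and the 7442 at or above the median mean were tested. Limma 3.58.1 in R 4.3.3 was fitted to all 6 arrays and 3 groups, with 3 residual degrees of freedom, over 4 contrasts, with calls made where the Benjamini-Hochberg adjusted p lay below 0.05. With 2 arrays a side, exact permutation gives 0.333 at best. The steps were tested on simulated data. The labels do not say whether replicates are separate transfections, so p-values may measure technical spread. Deviations from the group means of arrays with the same replicate number correlated at 0.205 to 0.265 between groups, so the numbers were taken as pairing the arrays. The labels state no such batch. Counts, SEs and intervals come from the fit without the block unless the block is named, and blocked fits are given where they change a call. The block also changed SEs. With siRNA 1 that of IGFBP3 went from 0.158 to 0.059 and that of S100A4 from 0.113 to 0.118. The members and lists were chosen with earlier results of these data known. Values on every array are given for members called in any contrast, the 10 with the largest difference in either siRNA contrast and the 5 with the highest mean. Of the companion lists, called genes are named. SMAD3, SMAD4, SMAD6, SMAD7, CLDN1 and the 8 epithelial genes below the tested level were named after their values were seen. Promoter sequences are from RefSeq (GRCh38.p14). Figures were drawn with matplotlib 3.10.9.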

Additional observations from a re-analysis of the deposited data

Results flagged for a closer look

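THBS1 and TPM1 responded differently to the siRNAs by the test of the difference itself. THBS1 was 0.57 higher on the log2 scale with MYEOV siRNA 1 than with MYEOV siRNA 2, and TPM1 was 0.54 higher (limma, Benjamini-Hochberg adjusted p = 0.00909 and 0.0185, 2 arrays per group). In both genes each siRNA 1 array was above each siRNA 2 array and the control arrays lay between. MYEOV itself had 5.34 and 5.19 with siRNA 1 and 5.23 and 4.70 with siRNA 2, a difference of 0.30 (adjusted p = 0.370), and its part in these differences was not tested.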

How the results depend on the processing

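The counts of called members are small and moved with most settings, for causes that were not tested. With siRNA 1 against control (1 member in the report) the count was 0 with no filter on dim genes and with only the groups compared, and 2 with every named row tested, with the rows of a gene averaged and using a trend and robust prior. With siRNA 2 against control (0) it was 1 with every named row tested, with rows averaged and with the replicate block. For the mean of both siRNAs (1) it was 0 with no filter, the 75th percentile filter, where 7 members including no BAMBI were tested, median centring, array weights and the replicate block, and 2 with every row tested and with rows averaged. Between the siRNAs (2) it was 0 with no filter, 1 with the 75th percentile filter and with rows averaged, and 4 with the replicate block. Leaving out each array in turn gave 0 to 0 with siRNA 1, with siRNA 2 and for the mean, and 0 to 2 between the siRNAs. The members gained were VIM by its other rows, THBS1 with siRNA 1 under the trend and robust prior and under the 75th percentile filter, where the count of 1 is THBS1 and BAMBI was not tested, and TPM1, FN1 and ZEB1 with the block. Besides these and the companion genes named in the report, the block changed no call of a listed gene. With no filter the calls of SMAD5, SMAD2, SKIL, CCN2 and JUP were lost as well (limma, Benjamini-Hochberg adjusted p from 0.142 to 0.225). MYEOV then lost its call with siRNA 1 (0.135) and kept it with siRNA 2 (0.0446). Over all genes, calls with no filter (14884 genes tested) numbered 39 with siRNA 1, 139 with siRNA 2, 26 for the mean and 195 between the siRNAs, beside 347, 508, 403 and 681. With 1 array left out they went as low as 58, 207, 68 and 226, and with only the groups compared siRNA 2 had 331. Of 1086 values of single members under another setting, 1051 kept their side of the threshold, 27 lost a call, 8 gained a call and 0 called values changed sign. With every named row tested, this tally follows only the row with the highest mean of each gene. The VIM calls by its other rows in that setting are therefore not among the 8. The median difference of the members kept its sign in the comparisons of siRNA 1, siRNA 2 and the siRNAs with each other, and for the mean it ran from -0.06 to 0.06. With 2 arrays per group and no detection p-values, the number of arrays limits the precision.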

Other observations

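Values outside the comparisons above concern dim rows. SMAD9, a BMP-branch SMAD below the tested level, had 4.42 and 4.38 with siRNA 1 and 4.23 and 4.14 with siRNA 2, against 3.99 and 4.04 in control cells. CLDN4, a tight junction protein also below that level, had 4.65 and 4.53 with siRNA 1 and 4.68 and 4.43 with siRNA 2, against 5.03 and 5.05 in control cells. In both genes the groups with MYEOV siRNA did not overlap the control arrays, no test was made, and they were named after their values were seen.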
